A study of Mus musculus with 20 samples.

Results

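The genes described here are 10 members of the machinery that takes a resting cell through the G1 phase: the D-type cyclins Ccnd1, Ccnd2 and Ccnd3, the E-type cyclins Ccne1 and Ccne2, the kinases Cdk4 and Cdk6, and the inhibitors Cdkn1b, Cdkn2a and Cdkn2b. They were chosen by symbol, with earlier results of these data known, and all 10 were found among the 54532 genes of the deposited table. The study sequenced RNA of C57BL/6 mouse hepatocytes (the labels of replicate 2 of each PHx time name liver tissue alone). Hepatocyte organoids (Hep-Org, 2 libraries) were hepatocytes embedded in Matrigel and collected after passaging. Their counterparts were hepatocytes freshly taken from livers at set times after surgery in which 70% of the liver was removed (partial hepatectomy, PHx), namely 6, 12, 24, 48 and 72 h and 7, 14 and 21 d (2 libraries each), and from undamaged livers (2 libraries). The labels report no engineered allele and no further treatment in any group, and do not say whether replicates were separate animals or cultures, so where they were not, p-values measure technical spread alone. The 6 libraries of 24, 48 and 72 h, the times around which hepatocytes of a mouse liver divide after resection, served as the regenerating liver against which Hep-Org were set.

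D-type cyclins accumulate when growth factors act on a cell and activate CDK4 and CDK6, which phosphorylate the retinoblastoma protein (RB) and release E2F transcription factors. E2F factors switch on the E-type cyclins, which activate CDK2 and drive entry into DNA synthesis. The INK4 inhibitors p16 (from Cdkn2a) and p15 (from Cdkn2b) hold CDK4 and CDK6 inactive, p19ARF (also from Cdkn2a) stabilises p53, and p27 (Cdkn1b) restrains CDK2; in liver, cyclin D1 is the cyclin best known for its induction after partial hepatectomy, and p16 and p19ARF are known to accumulate in cultured rodent cells.

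The values are FPKM (fragments per kilobase of exon, with a scaling factor per library), so levels of different genes are given per length. Between 13.7 and 41.4 M reads (M, 1000000) could be recovered from the values of a library. These were 0.478 to 1.94 times the library size that the FPKM scale implies, so the scale did not follow the recovered reads alone. Factors that match the median gene between libraries ran from 0.976 to 1.04. FPKM summed to at most 184765 in a Hep-Org library and to at least 326835 in a liver library. Hepatocyte markers were called lower in Hep-Org than at 24 to 72 h in 9 of 10 cases, beside 14% of all tested genes. Their summed level was 972 to 4387 FPKM in Hep-Org and 33961 to 60188 FPKM at 24 to 72 h. Albumin (Alb) was at 3132 and 86.4 FPKM in the Hep-Org libraries, while the hepatocyte factor Hnf4a was at 43.5 and 37.9 FPKM. Hnf4a was not called different from the 54.5 to 71.1 FPKM at 24 to 72 h, although both Hep-Org values lay below every liver library (lowest 48.9 FPKM, 7 d replicate 1). All 5 tested markers of cholangiocytes (Krt19, Krt7, Epcam, Sox9 and Spp1) were called higher, as were 10.7% of all tested genes. Their list summed to 2729 to 4444 FPKM in Hep-Org, 10.2 to 42.2 FPKM at 24 to 72 h and up to 335 FPKM in undamaged liver. Krt19, Epcam and Sox9 were at only 5.24 to 17.3 FPKM in Hep-Org, so the sums there rest mostly on the other markers. All 6 markers of Kupffer cells were called lower, with sums of 0.837 to 3.99 FPKM in Hep-Org, where Vsig4 and Timd4 were at 0, and 98.8 to 313 FPKM at 24 to 72 h. All 6 of sinusoidal endothelium were called lower too, with sums of 0.143 to 0.435 FPKM in Hep-Org and 35.3 to 109 FPKM at 24 to 72 h. Of 4 tested lymphocyte markers limma called 0 (1 had an unadjusted p under 0.05, and voom on recovered reads called 3), with sums of 0.0367 to 0.0426 FPKM in Hep-Org, where Cd3e, Cd3g and Nkg7 were at 0, and 1.04 to 4.69 FPKM at 24 to 72 h. In these bulk libraries fewer cells of a type and less RNA per cell cannot be told apart, and the part of cell composition in the results below was not tested. Xist, the RNA of the inactive X chromosome, and Ddx3y, a Y-linked gene, split the libraries. All those of 48 h, 72 h and 7 d and Hep-Org replicate 2 had Xist at 13.6 to 25.3 FPKM, and all others had Ddx3y at 9.66 to 21.4 FPKM. Both kinds thus occur in Hep-Org and at 24 to 72 h, and the 2 Hep-Org libraries were not repeats from 1 animal. Within liver each group held a single kind, and both undamaged libraries had Ddx3y, so time and kind cannot be fully told apart there.

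Hep-Org carried more RNA of most of these genes than liver at 24 to 72 h did. Of the 10 members, 7 were called higher in Hep-Org than at 24 to 72 h and 0 lower (limma on log2(FPKM + 1), Benjamini-Hochberg adjusted p under 0.05 and a log2 difference of at least 1). Among all 13162 tested genes 10.7% were called higher and 14% lower. The 7 were Ccnd1, Ccnd2, Ccne1, Cdk4, Cdk6, Cdkn2a and Cdkn2b, and the median log2 difference of the 10 was 1.59, beside -0.01 over all tested genes. Cdkn2a and Cdkn2b reached the filter level of 1 FPKM in the 2 Hep-Org libraries alone, so that their entry into the test already required a difference. In 8 of 10 members, all but Ccne2 and Cdkn1b, both Hep-Org libraries lay above all 18 liver libraries, which held for 14.9% of tested genes. For Cdkn2a and Cdkn2b the filter fixed this outcome in advance, so it is a result for Ccnd1, Ccnd2, Ccnd3, Ccne1, Cdk4 and Cdk6 alone. Against undamaged liver, a comparison that uses the same Hep-Org libraries, the same 7 genes were called higher, where 10.6% of tested genes were called higher. In a fit of these groups alone Ccne1 (limma adjusted p = 0.0524) and Cdk6 (limma adjusted p = 0.105) lost that call, and Cdk6 also lost it without Hep-Org replicate 1 (limma adjusted p = 0.0842) or without undamaged replicate 2 (limma adjusted p = 0.0514). Had every library been scaled to the same FPKM sum, the median of all genes would have been 1.28 higher in Hep-Org than at 24 to 72 h on the log2 scale; all 10 members would then be called higher, and relative to that shift the differences were 3.54 for Ccnd1, 0.65 for Ccnd3, -0.04 for Ccne2 and 0.05 for Cdkn1b.

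**Figure D1:**
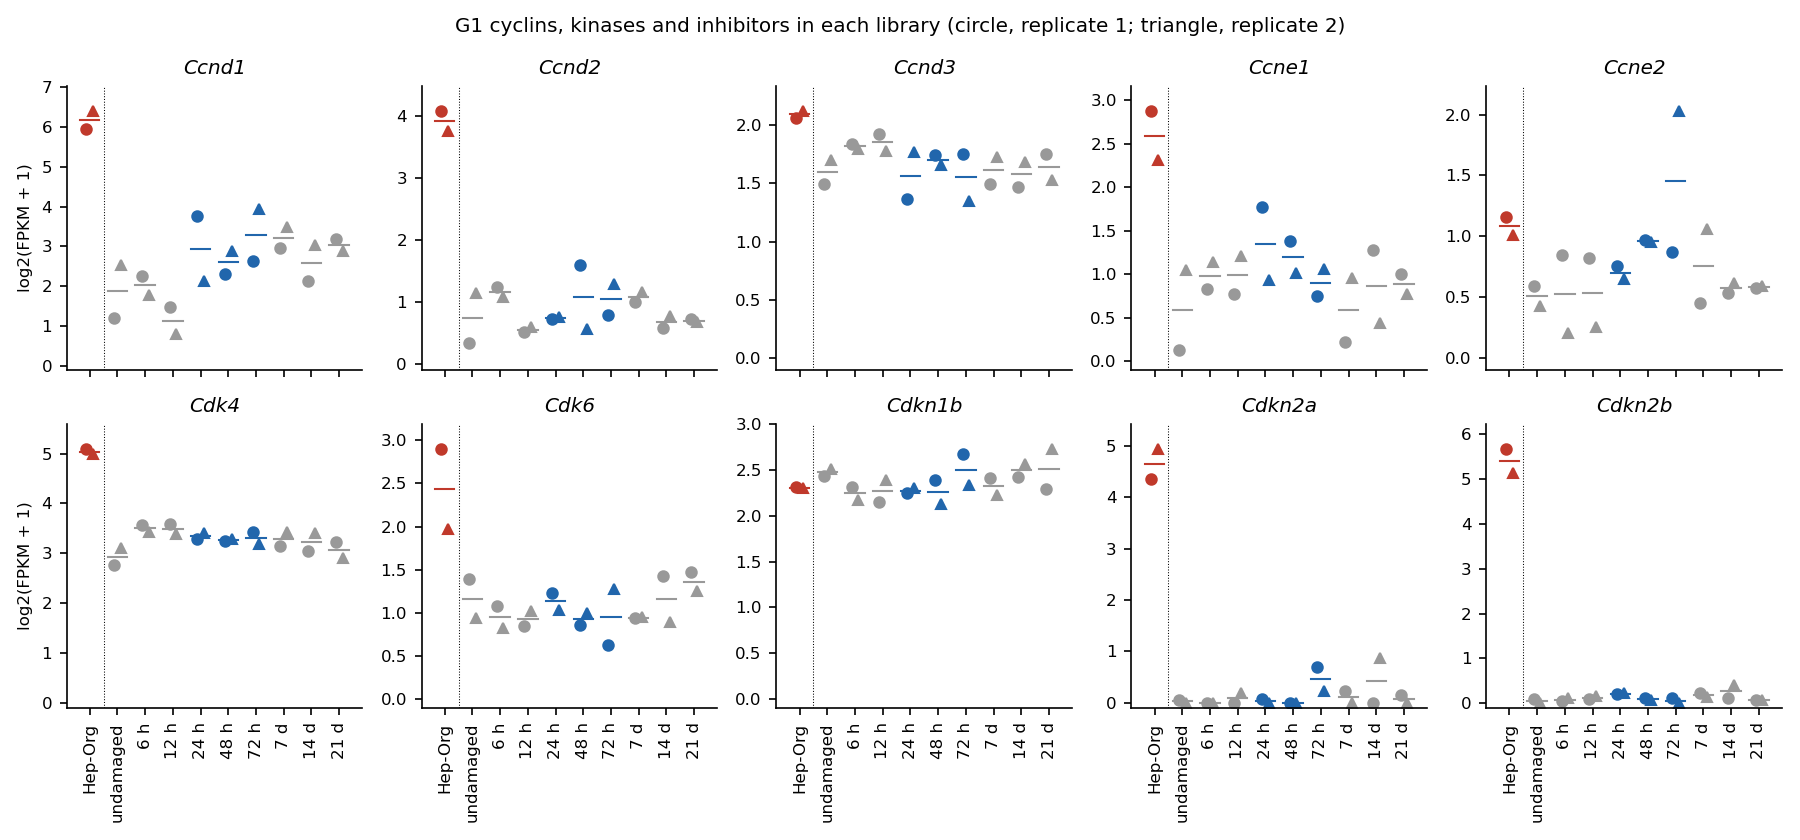
Level of each gene, as log2(FPKM + 1), in every library, by group; circles are replicate 1, triangles replicate 2, short lines the mean of 2 libraries, red Hep-Org, blue 24 to 72 h and grey the other liver groups. The 2 Hep-Org libraries stand above every liver library in 8 panels, and lie among the liver libraries for Ccne2 and Cdkn1b. For Cdkn2a and Cdkn2b the filter fixed this in advance.

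Cyclin D1 and cyclin D2, the cyclins that pair with CDK4 and CDK6, were the most strongly raised of the activating genes. Ccnd1 (chromosome 7, 144929931 to 144939925, mm10) was at 61.1 and 83.1 FPKM in Hep-Org. At 24 h it was at 12.5 and 3.38 FPKM, at 48 h at 3.98 and 6.36 FPKM, and at 72 h at 5.19 and 14.3 FPKM. The lower Hep-Org library was 4.28 times the highest liver library, and the groups did not overlap. The fitted log2 difference was 3.23 ± 0.479 (SE; limma adjusted p = 1.53e-04), and the ratio of mean FPKM was 9.46. Of the exon bases of Ccnd1, 23.4% are shared with LTO1 on the other strand, a gene at 1.19 FPKM in Hep-Org and 1.09 FPKM at 24 to 72 h, and the strand setting of the counting is not known here.

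Ccnd2 (chromosome 6, 127125162 to 127152193) encodes cyclin D2, prominent in lymphoid and endocrine cells. It was at 15.9 and 12.6 FPKM in Hep-Org, and between 0.468 and 2.0 FPKM with a median of 0.701 FPKM at 24 to 72 h. Every liver library was near or under 2 FPKM, and the lower Hep-Org library was 6.29 times the highest of them. The log2 difference was 2.97 ± 0.256 (SE; limma adjusted p = 1.53e-06), and the ratio of means was 14.3.

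Ccnd3 (chromosome 17, 47505051 to 47599691), the D-type cyclin of many differentiated cells, was at 3.19 and 3.36 FPKM in Hep-Org and at 1.55 to 2.42 FPKM, median 2.26 FPKM, at 24 to 72 h. The groups did not overlap, but the gap was small: the lower Hep-Org library was 1.14 times the highest liver library. The log2 difference was 0.49 ± 0.157 (SE; limma adjusted p = 0.0238), under the size needed for a call. In a fit of these groups alone the limma adjusted p of Ccnd3 was 0.0522. Leaving out 1 library gave log2 differences of 0.42 to 0.56. A processed pseudogene, Ccnd3-ps, exists, and reads it shares with Ccnd3 could be split by the counting.

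The D-type cyclins together summed to 80.2 and 99.1 FPKM in Hep-Org and to 6.47 to 17.3 FPKM at 24 to 72 h. Ccnd1 made up 80.04 ± 5.44% of that sum in Hep-Org (SD, n = 2) and 66.8 ± 15.4% at 24 to 72 h (SD, n = 6), a difference within the spread of the liver libraries (exact permutation test, two-sided, p = 0.357, adjusted over 3 shares 0.536). With 2 libraries against 6 the exact permutation test cannot go below p = 0.0714. Ccnd3 held 3.39 to 3.97% of the sum in Hep-Org and 8.95 to 37.3% at 24 to 72 h.

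**Figure D2:**
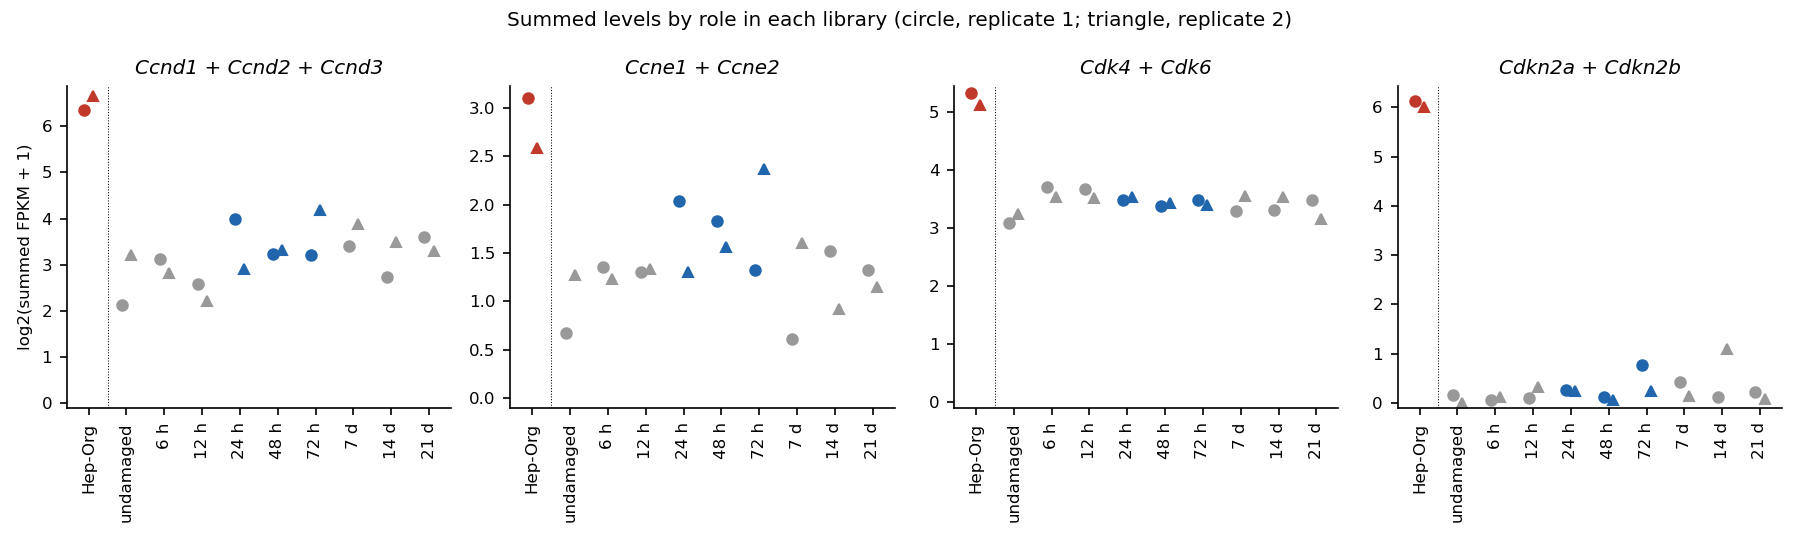
Summed level, as log2(summed FPKM + 1), of the D-type cyclins, the E-type cyclins, Cdk4 with Cdk6, and Cdkn2a with Cdkn2b in every library; circles are replicate 1, triangles replicate 2, red Hep-Org, blue 24 to 72 h and grey the other liver groups. Cdkn2a with Cdkn2b summed to 63.3 and 68.9 FPKM in Hep-Org and reached at most 1.14 FPKM in a liver library, the widest separation of the 4 panels.

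The E-type cyclins parted from each other. Ccne1 (cyclin E1; chromosome 7, 38097984 to 38107534) was at 6.35 and 3.97 FPKM in Hep-Org. It was at 2.41 and 0.903 FPKM at 24 h, 1.60 and 1.03 FPKM at 48 h, and 0.680 and 1.08 FPKM at 72 h. The lower Hep-Org library was 1.64 times the highest liver library. The log2 difference was 1.45 ± 0.322 (SE; limma adjusted p = 0.00304), and without Hep-Org replicate 1 the gene was no longer called, at a log2 difference of 1.16 and an adjusted p of 0.0690.

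Ccne2 (cyclin E2; chromosome 4, 11191351 to 11204779) was at 1.23 and 1.02 FPKM in Hep-Org and at 0.564 to 3.09 FPKM, median 0.881 FPKM, at 24 to 72 h. Its highest value in the whole series belonged to a liver library, replicate 2 of 72 h, and Hep-Org fell inside the liver range. The log2 difference was 0.05 with a 95% interval from -0.55 to 0.65 (limma adjusted p = 0.904), and its direction turned when either Hep-Org replicate 1 or 72 h replicate 1 was left out. Ints8 on the other strand shares 17.4% of the exon bases of Ccne2 and was at 2.74 FPKM in Hep-Org and 1.80 FPKM at 24 to 72 h, so part of this low signal may not be told apart from it.

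Ccne1 made up 83.8 and 79.6% of the E-type cyclin RNA in Hep-Org and 25.9 to 77.9% at 24 to 72 h. These groups did not overlap, although 1 library of 6 h (89.0%) and 1 of 12 h (87.3%) lay above both Hep-Org libraries, and the exact permutation p was 0.0714, the smallest this design allows (adjusted over 3 shares 0.214). The share was 81.7 ± 2.95% in Hep-Org (SD, n = 2) and 54.2 ± 17.8% at 24 to 72 h (SD, n = 6).

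Both kinases of the D-type cyclins were called higher. Cdk4 (chromosome 10, 127063534 to 127067920) was at 32.9 and 31.0 FPKM in Hep-Org and at 8.15 to 9.71 FPKM, median 8.81 FPKM, at 24 to 72 h. Its libraries agreed closely within each group, and the lower Hep-Org library was 2.83 times the highest liver library. It differed by a log2 value of 1.73 ± 0.170 (SE; limma adjusted p = 4.62e-06). Cdk4 shares 19.7% of its exon bases with Tspan31 on the other strand, which was at 26.0 FPKM in Hep-Org and 79.1 FPKM at 24 to 72 h, and how far Tspan31 reads entered the Cdk4 values was not tested.

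The promoter of Cdk4 is shown because 4 CACGTG E-boxes, a word bound by MYC and related factors, stand in its 300 bases. The window runs from 250 bases before to 50 after the RefSeq start (GRCm38.p6, chr10:127063285-127063584, plus strand), and capitals mark CACGTG and the GC box GGGCGG, read on both strands, of which a pair overlaps near the start.
Cdk4 promoter: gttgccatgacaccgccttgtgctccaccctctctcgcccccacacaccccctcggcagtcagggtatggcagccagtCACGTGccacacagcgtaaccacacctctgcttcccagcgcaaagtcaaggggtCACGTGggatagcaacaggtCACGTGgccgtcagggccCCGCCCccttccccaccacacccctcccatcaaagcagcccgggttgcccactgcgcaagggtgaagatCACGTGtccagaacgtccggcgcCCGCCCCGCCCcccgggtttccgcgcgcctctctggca
CACGTG was present in 7.15% and GGGCGG in 35.7% of 32851 mouse promoters of the same length. Such matches describe the sequence and are not evidence of binding.

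Cdk6 (chromosome 5, 3341485 to 3531008), the partner kinase of D-type cyclins that dominates in blood cells, was at 6.45 and 2.94 FPKM in Hep-Org. At 24 to 72 h it was at 0.540 to 1.43 FPKM with a median of 1.02 FPKM, and no liver library reached the lower Hep-Org value. The fitted difference was 1.43 ± 0.246 (SE; limma adjusted p = 4.72e-04), but without Hep-Org replicate 1 it was 0.97 and no longer a call. Cdk4 supplied 87.5 ± 5.46% of the Cdk4 plus Cdk6 RNA in Hep-Org (SD, n = 2) and 89.6 ± 3.42% at 24 to 72 h (SD, n = 6), with overlapping groups (exact permutation p = 0.571, adjusted 0.571).

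**Figure D3:**
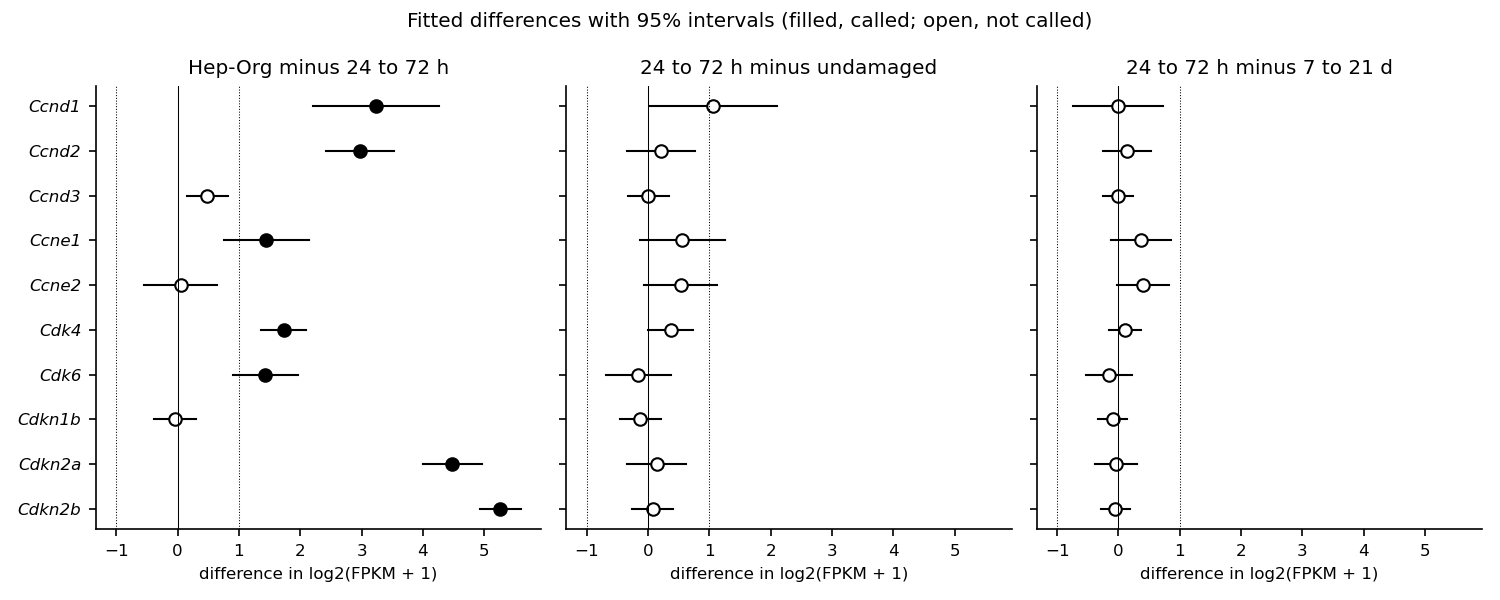
Fitted differences in log2(FPKM + 1) for each gene with 95% intervals from limma, for Hep-Org minus 24 to 72 h, 24 to 72 h minus undamaged liver, and 24 to 72 h minus 7 to 21 d; filled points are called, open points are not, and dotted lines mark a difference of 1. Filled points occur in the Hep-Org panel alone, with the largest differences at Cdkn2b (5.26) and Cdkn2a (4.48). These genes passed the filter through the Hep-Org libraries alone.

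The inhibitors fell into 2 kinds. Cdkn1b (p27, chromosome 6, 134920401 to 134925513), a brake on CDK2, was at 3.96 and 3.93 FPKM in Hep-Org and at 3.38 to 5.37 FPKM, median 4.0 FPKM, at 24 to 72 h. Hep-Org lay inside the liver range. On the log2 scale the difference was -0.04 with a 95% interval from -0.38 to 0.29 (limma adjusted p = 0.851), and scaling to a common FPKM sum turned it to 1.34 (limma adjusted p = 0.00377), close to the 1.28 by which that scaling moved the median gene. The ratio of summed D-type cyclin FPKM to Cdkn1b FPKM was 20.3 and 25.2 in Hep-Org, against 1.54 to 4.25 at 24 to 72 h.

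Cdkn2a and Cdkn2b, which encode p16, p19ARF and p15, were near absent from every liver library and abundant in Hep-Org. Cdkn2a was at 19.5 and 29.5 FPKM in Hep-Org, from 2762 recovered reads. At 24 to 72 h it was at 0 to 0.624 FPKM, median 0.0292 FPKM, from 24 reads in 6 libraries, and 10 of the 18 liver libraries held no read. The highest liver value, 0.819 FPKM, was in replicate 2 of 14 d, and the lower Hep-Org library was 23.9 times that. The model gave a log2 difference of 4.48 ± 0.223 (SE). No p-value is given, since the gene passed the filter through the Hep-Org libraries alone.

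Cdkn2b was at 49.4 and 33.8 FPKM in Hep-Org, from 5389 reads, and at 0 to 0.177 FPKM, median 0.0859 FPKM, at 24 to 72 h, from 13 reads. No liver library held more than 7 reads of it. The lower Hep-Org library was 105 times the highest liver library. It differed by a log2 value of 5.26 ± 0.154 (SE). Cdkn2b too passed the filter through the Hep-Org libraries alone, so no p-value is given. Adding 1 FPKM before the logarithm compresses such differences: with 0.1 FPKM added they were 7.08 for Cdkn2a and 7.82 for Cdkn2b.

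Set against Cdk4 and Cdk6, the RNA of Cdkn2a and Cdkn2b was of the same order in Hep-Org and negligible in liver. Summed Cdkn2a and Cdkn2b FPKM was 1.75 and 1.87 times summed Cdk4 and Cdk6 FPKM in Hep-Org, against 0.00489 to 0.0690 times at 24 to 72 h. The sum includes any p19ARF RNA, which does not encode an inhibitor of these kinases. It leaves out the inhibitor genes Cdkn2c and Cdkn2d, which were not negligible in liver. Cdkn2c was at 2.41 and 3.56 FPKM in Hep-Org and 1.48 to 11.0 FPKM at 24 to 72 h. Cdkn2d was at 1.06 and 1.26 FPKM in Hep-Org and 0.869 to 5.05 FPKM at 24 to 72 h.

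Both genes lie on the minus strand of chromosome 4, Cdkn2a at 89274471 to 89294653 and Cdkn2b at 89306299 to 89311039, with 11645 bases between them. Cdkn2a has 2 start sites 12461 bases apart: the upstream one gives p19ARF and the downstream one p16, from the same second exon in different reading frames. The deposited values are per gene and cannot be split between them. The 3 promoters are printed because all of them belong to the genes that differ most, among the 10, between Hep-Org and liver (RefSeq, GRCm38.p6, minus strand, 250 bases before to 50 after the start). They are the upstream Cdkn2a promoter (chr4:89294570-89294869), the downstream one (chr4:89282143-89282442) and that of Cdkn2b (chr4:89310983-89311282). Capitals mark the E2F words TTTCCCGC, TTTCGCGC, TTTGCCGC and TTTGGCGC and the GC box GGGCGG, searched on both strands.
Cdkn2a upstream promoter: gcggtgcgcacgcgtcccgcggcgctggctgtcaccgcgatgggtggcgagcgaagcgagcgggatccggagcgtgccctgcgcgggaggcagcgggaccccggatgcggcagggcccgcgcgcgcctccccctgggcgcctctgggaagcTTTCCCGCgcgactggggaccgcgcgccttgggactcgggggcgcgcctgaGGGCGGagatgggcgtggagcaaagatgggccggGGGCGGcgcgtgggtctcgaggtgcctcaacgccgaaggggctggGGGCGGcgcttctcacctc
Cdkn2a downstream promoter: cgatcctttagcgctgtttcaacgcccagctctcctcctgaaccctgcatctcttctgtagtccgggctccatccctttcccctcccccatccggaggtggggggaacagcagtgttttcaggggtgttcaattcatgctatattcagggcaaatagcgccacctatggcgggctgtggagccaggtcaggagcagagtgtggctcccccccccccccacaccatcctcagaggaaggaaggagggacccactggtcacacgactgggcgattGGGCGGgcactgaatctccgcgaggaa
Cdkn2b promoter: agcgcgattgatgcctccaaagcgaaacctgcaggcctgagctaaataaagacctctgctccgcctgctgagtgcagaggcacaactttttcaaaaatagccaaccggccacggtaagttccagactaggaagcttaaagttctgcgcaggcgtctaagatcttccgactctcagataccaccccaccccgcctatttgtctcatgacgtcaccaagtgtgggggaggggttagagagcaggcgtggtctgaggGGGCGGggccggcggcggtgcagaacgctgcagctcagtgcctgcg
The upstream Cdkn2a window held 1 E2F word and 3 GC boxes, and each of the other 2 windows held 1 GC box and no E2F word. An E2F word was present in 2.26% of 32851 promoters and a GC box in 35.7%. RefSeq windows were matched for 7 of the 10 genes.

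The neighbourhood of the pair was examined after the values were seen, 500000 bases to each side. Of 38 genes there, 6 were tested, and 5 were called higher in Hep-Org than at 24 to 72 h, Cdkn2a and Cdkn2b among them, beside 10.7% of all genes. Of these 5, 3 (Cdkn2a, Cdkn2b and Wincr1) passed the filter through the Hep-Org libraries alone, so that nothing is read from the count. Mtap, the methylthioadenosine phosphorylase gene next to Cdkn2a, was at 21.1 and 15.0 FPKM in Hep-Org and 3.08 to 8.16 FPKM at 24 to 72 h (log2 difference 1.63, limma adjusted p = 2.79e-04). The long noncoding RNA gene AL805899.1 was at 15.5 and 7.61 FPKM in Hep-Org and 0.0354 to 1.15 FPKM at 24 to 72 h (log2 difference 2.94, limma adjusted p = 3.87e-05). Wincr1, another noncoding RNA gene, was at 15.2 and 3.82 FPKM in Hep-Org and is listed at 0 in all 18 liver libraries. Gm12602, between Wincr1 and Mtap, was at 0.389 and 0.562 FPKM in Hep-Org and 0 to 1.21 FPKM at 24 to 72 h, and was not called (limma adjusted p = 0.877).

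**Figure D4:**
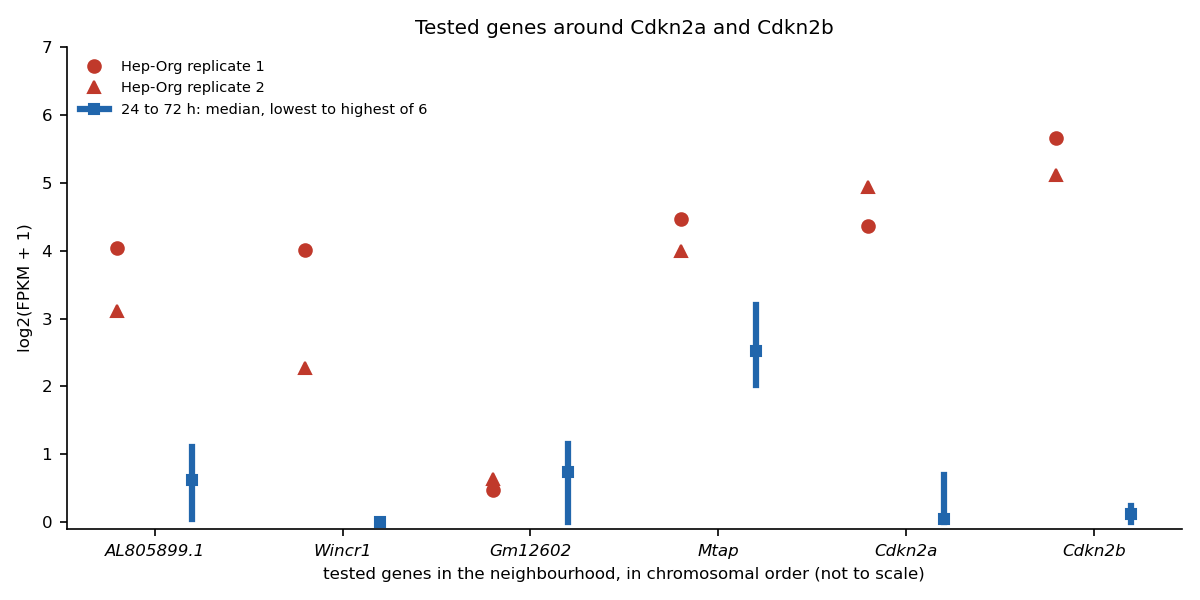
Level, as log2(FPKM + 1), of the 6 tested genes around Cdkn2a and Cdkn2b in chromosomal order; red symbols are the 2 Hep-Org libraries, and blue bars run from the lowest to the highest of the 6 libraries of 24 to 72 h with the median as a square. Hep-Org stands clear of the liver bar for every gene except Gm12602.

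The Polycomb repressors that silence the Cdkn2a and Cdkn2b genes in dividing stem and progenitor cells were examined as a list. Of 8 tested, limma called 0, where 10.7% of all tested genes were called higher and 14% lower, so the count does not set the list apart. Of the 8, 2 had an unadjusted p under 0.05, and voom on recovered reads called 1. Their median log2 difference was 0.34. The Polycomb reader Cbx7 was at 0.924 and 2.56 FPKM in Hep-Org and 0.327 to 0.611 FPKM at 24 to 72 h (log2 difference 0.87, limma adjusted p = 0.0063). The PRC2 subunit Suz12 was at 8.25 and 9.28 FPKM in Hep-Org and 4.07 to 6.79 FPKM at 24 to 72 h (log2 difference 0.70, limma adjusted p = 0.0155).

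Among the other inhibitors of cyclin-dependent kinases, 1 of 5 was called higher in Hep-Org than at 24 to 72 h and 0 lower, which cannot be told from the 10.7% and 14% over all genes, with a median log2 difference of -0.60. Cdkn1a (p21, a p53 target) was at 28.1 and 41.4 FPKM in Hep-Org and 2.22 to 13.1 FPKM at 24 to 72 h, with no overlap (log2 difference 2.36, limma adjusted p = 0.00876), and it was no longer called without Hep-Org replicate 2 (limma adjusted p = 0.0940). Cdkn1a reached 47.4 FPKM in 1 library of 6 h and 50.8 FPKM in 1 of 12 h, so Hep-Org did not exceed every liver library. Cdkn1c (p57) was at 0.112 and 0.250 FPKM in Hep-Org and 0.335 to 1.91 FPKM at 24 to 72 h (log2 difference -0.60, limma adjusted p = 0.0241, under the size for a call).

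Downstream of the kinases, 1 of 11 tested genes of the RB and E2F list was called higher in Hep-Org than at 24 to 72 h and 0 lower, near the 10.7% called higher over all genes, with a median log2 difference of 0.30. That gene was Tfdp1, the DNA-binding partner of E2F proteins, at 17.9 and 19.6 FPKM in Hep-Org and 5.95 to 8.07 FPKM at 24 to 72 h (log2 difference 1.25, limma adjusted p = 5.28e-04). E2f3, an activating E2F, was at 3.44 and 3.79 FPKM in Hep-Org and 1.03 to 1.88 FPKM at 24 to 72 h (log2 difference 0.97, limma adjusted p = 2.18e-04, just under the size for a call). Of 8 genes for CDK2, CDK1, the A- and B-type cyclins and the CDC25 phosphatases, limma called 0, 2 had an unadjusted p under 0.05 and voom called 1. Over all tested genes 10.7% were called higher and 14% lower, so 0 calls among 8 does not set this list apart. The phosphatase gene Cdc25a missed the size for a call, at a log2 difference of 0.97 (limma adjusted p = 0.00126). Of 3 subunits of the CDK-activating kinase limma and voom called 0, although all 3 had an unadjusted p under 0.05. With 3 genes, 0 calls cannot be told from the same shares over all genes.

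Genes that turn over p27 and the cyclins gave 0 higher and 1 lower call among 8 tested, near the 14% called lower over all genes, with a median log2 difference of -0.40. Skp1a, a core subunit of SCF ubiquitin ligases, was at 29.8 and 36.8 FPKM in Hep-Org and 48.1 to 85.4 FPKM at 24 to 72 h (log2 difference -1.06, limma adjusted p = 0.00153). With a common FPKM sum its difference was 0.41, the opposite direction, although below the median gene, and it was not called without Hep-Org replicate 1 (-0.91) or without 48 h replicate 2 (-0.98). Ambra1, which directs the degradation of D-type cyclins, was at 3.91 and 5.30 FPKM in Hep-Org and 1.12 to 2.57 FPKM at 24 to 72 h (log2 difference 0.89, limma adjusted p = 4.47e-04), under the size for a call.

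Of 13 proliferation genes, 2 were called higher in Hep-Org than at 24 to 72 h and 0 lower, a share not set apart from the 10.7% of all genes, with a median log2 difference of 0.72. These were the replication licensing genes Mcm2 (log2 difference 1.12, limma adjusted p = 0.00513) and Mcm7 (1.09, limma adjusted p = 0.0123), and neither was called when Hep-Org replicate 1 or 24 h replicate 2 was left out, nor was Mcm7 without Hep-Org replicate 2. Mki67, a marker of cycling cells, was at 4.70 and 3.46 FPKM in Hep-Org and 0.129 to 8.09 FPKM at 24 to 72 h, so the groups overlapped (limma adjusted p = 0.425). The liver side was mixed. Both libraries of 24 h (0.455 and 0.129 FPKM) and 48 h replicate 2 (0.616 FPKM) lay below undamaged replicate 2 (1.02 FPKM). In 48 h replicate 1 Mki67 was at 8.09 FPKM, and at 72 h at 7.05 and 5.84 FPKM.

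Within liver no member was called, in groups that each held a single kind by Xist and Ddx3y. Between 24 to 72 h and undamaged liver, 0 of 10 members were called by limma, 2 had an unadjusted p under 0.05 and voom called 0, where 2% of all tested genes were called. The undamaged libraries stood apart from each other: Saa1, an acute-phase gene, was at 19.9 and 20927 FPKM in replicates 1 and 2, and Clec4f, a Kupffer cell gene, at 9.16 and 183 FPKM, and their part in the differences from undamaged liver was not tested. Between 24 to 72 h and 7 to 21 d, 0 were called by limma, 0 had an unadjusted p under 0.05 and voom called 0 (0.175% of all genes called). Over the 8 times after PHx the F test called 0, with 1 unadjusted p under 0.05 and 0 calls by voom, where 13.6% of all tested genes were called.

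Ccnd1 came closest. It was at 1.32 and 4.80 FPKM in undamaged liver, 3.8 and 2.43 FPKM at 6 h, 1.79 and 0.727 FPKM at 12 h, then at 24 to 72 h as given above, 6.76 and 10.2 FPKM at 7 d, 3.40 and 7.27 FPKM at 14 d, and 8.08 and 6.38 FPKM at 21 d. The lowest group was 12 h and the highest 72 h, and all neighbours in the order of group means from 72 h down to 48 h overlapped. The log2 difference between 24 to 72 h and undamaged liver was 1.07 ± 0.479 (SE; limma adjusted p = 0.236); it was 0.41 without undamaged replicate 1 and 1.73 without undamaged replicate 2, neither called. Over the 8 times the group means ranged over 2.15 (limma adjusted p = 0.141). Between 24 to 72 h and 7 to 21 d the log2 difference was -0.01 with a 95% interval from -0.74 to 0.72, so the level at 24 to 72 h was not distinguishable from that at 7 to 21 d.

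Cdk4 was at 8.15 to 9.71 FPKM at 24 to 72 h and at 5.82 and 7.58 FPKM in undamaged liver, so that these groups did not overlap; all 6 libraries of 24 to 72 h lay above both undamaged libraries in 6.67% of tested genes. The fitted difference was 0.37 ± 0.170 (SE; limma adjusted p = 0.240), and 0.21 without undamaged replicate 1. Its highest liver group was 6 h, at 10.9 and 9.77 FPKM, and each liver group overlapped its neighbour in the order of means.

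Ccne2 was highest at 72 h, where replicate 1 was at 0.827 FPKM and replicate 2 at 3.09 FPKM, and it was at 0.502 and 0.342 FPKM in undamaged liver. Its log2 difference between 24 to 72 h and undamaged liver was 0.53 with a 95% interval from -0.07 to 1.13, and it was 0.34 without 72 h replicate 2. Ccne1 was highest at 24 h and spanned 0.0916 and 1.07 FPKM in undamaged liver, where the lower library held 5 reads. Between 24 to 72 h and undamaged liver its log2 difference was 0.56 with a 95% interval from -0.13 to 1.26, and it was 0.10 without undamaged replicate 1 and 1.02 without undamaged replicate 2. The intervals of the other 6 members between 24 to 72 h and undamaged liver lay within -0.69 and 0.76.

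**Figure D5:**
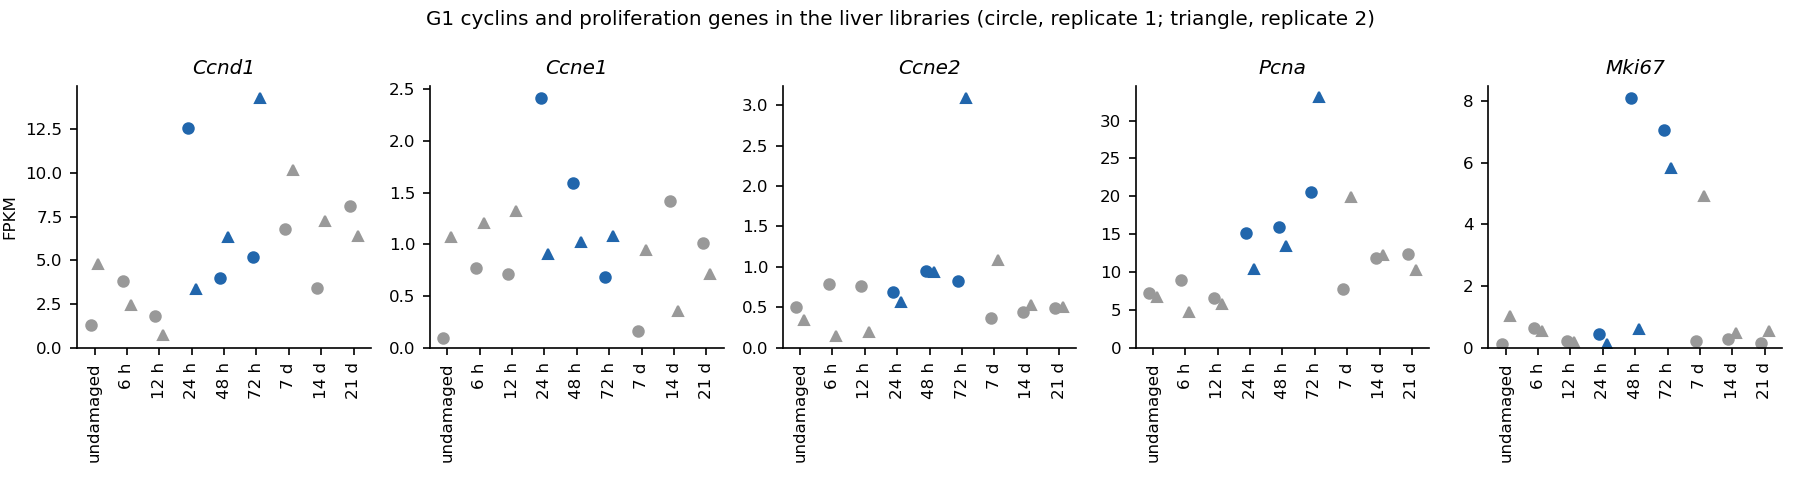
FPKM of Ccnd1, Ccne1, Ccne2 and the proliferation genes Pcna and Mki67 in each liver library; circles are replicate 1, triangles replicate 2, and blue marks 24 to 72 h. Mki67 was high in 1 library of 48 h, both of 72 h and 1 of 7 d, and the replicates of a time differ widely for Ccnd1 and Mki67.

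The liver replicates were not in step. Mki67 was at 8.09 and 0.616 FPKM in the 2 libraries of 48 h and at 0.224 and 4.91 FPKM in those of 7 d. Of the proliferation genes, 11 of 13 had an unadjusted p under 0.05 between 24 to 72 h and undamaged liver. Limma and voom called 0 of them, where limma called 2% of all tested genes. Their median log2 difference was 1.13, beside -0.03 over all tested genes. Between 24 to 72 h and 7 to 21 d, 12 of 13 had an unadjusted p under 0.05 and 0 were called, beside 0.175% of all genes. The median there was 0.72, beside -0.001 over all tested genes. The share of all tested genes with an unadjusted p under 0.05 is not given here, so nothing is read from these counts. Over the 8 times, 2 of the 13 were called, beside 13.6% of all genes, namely Tk1 (range of group means 1.76, limma adjusted p = 0.00253) and Pcna (1.92, limma adjusted p = 0.0403), of which Pcna lost its call in 18 of 28 alternatives.

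The genes whose pattern over the 20 libraries was most like each member were sought by Pearson's r on log2(FPKM + 1), as a description over libraries that share their groups. For Ccne2 they were Slbp (r = 0.858), which binds histone mRNAs, Pcna (r = 0.843), the polymerase clamp, and Gmfb (r = 0.837). Over the 18 liver libraries alone r was 0.852, 0.831 and 0.828. For Ccnd1 the first was Nfe2l2 (r = 0.933, and 0.803 in liver alone). For Cdk4 it was Syde1 (r = 0.977, and 0.818 in liver alone). For Cdkn2a it was Sox4 (r = 0.982), with r of 0.09 in liver alone, and for Cdkn2b it was Cdh17 (r = 0.997), with r of -0.04 in liver alone. Cdkn2a and Cdkn2b had r of 0.982 with each other, and 0.553 in liver alone, where both rest on few reads. The closest partner of Cdkn1b, Tars, reached r of 0.689.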

How the data were processed

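The authors deposited FPKM per gene; reads were aligned with HISAT2 2.0.5 to mm10, per the submitters' processing notes, and the sources used here do not name the counter, annotation, strand setting or scaling. The column of undamaged replicate 1 was matched by elimination. Symbols (54409 of 54532 identifiers), exon lengths and positions came from GENCODE M21 (GRCm38). FPKM times exon length came out as a whole number of reads (tolerance 0.05) for 97.9% to 98.7% of values of at most 20 reads, which gave recovered reads and depth.

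Genes with at least 1 FPKM in at least 2 libraries (13162) were fitted on log2(FPKM + 1), a scale that understates changes of low genes, with limma 3.58.1 in R 4.3.3: all 20 libraries, 10 group means, with the trend and robust settings (residual degrees of freedom 10, prior 3.11). P-values were adjusted by Benjamini-Hochberg over all tested genes of a comparison. Genes were called where the adjusted p was under 0.05 and groups differed by 1 or more in log2 (time course: range of means). Each 24 to 72 h or 7 to 21 d value in the fit is the mean of 3 group means. The 3 shares were tested over libraries by exact permutation. Code was tested on simulated data. Python 3.11.15, pandas 2.3.3 and scipy 1.17.1 made summaries.

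The series text describes a second submission, taken as replicate 2 of each PHx time (8 libraries, whose labels name the tissue as liver but no cell type). As a check of pairing, replicate differences of 2 times correlated at -0.381 to 0.472 (28 pairs, median -0.115, 4 over 0.1), so numbers were not used as pairs. Named genes were the 10 members, up to 4 per list by the largest statistic, and up to 3 most alike per member with a mean of at least 1 FPKM. The members, lists and tests were chosen with earlier results of these data known. Alternatives were a pseudocount of 0.1, no filter or a filter of 5 FPKM, 2 other scalings, a submission term, fits of the compared groups alone, voom on recovered reads, and leaving out each library.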

Additional observations from a re-analysis of the deposited data

How the results depend on the processing

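The 7 calls in Hep-Org against 24 to 72 h held under every alternative that leaves no library out and tests the gene (Ccne1 and Cdk6 do not pass a filter of 5 FPKM). Of these 7, Cdkn2a and Cdkn2b passed the main filter through the Hep-Org libraries alone, so nothing is read from their calls. The submission term (replicate block) called the same number, 7, and 0 in the other liver comparisons. Genes called over the whole table, with the range when 1 library was left out, were 3260 (2475 to 3311) for Hep-Org against 24 to 72 h, 3210 (2409 to 3391) for Hep-Org against undamaged, 263 (113 to 410) for 24 to 72 h against undamaged, 23 (9 to 47) for 24 to 72 h against 7 to 21 d and 1785 (1226 to 2177) for the time course. With a common FPKM sum they were 8632, 8724, 68, 52 and 1032, and the median gene lay at 1.28 in Hep-Org against 24 to 72 h, 1.54 in Hep-Org against undamaged, 0.28 for 24 to 72 h against undamaged and -0.20 for 24 to 72 h against 7 to 21 d on the log2 scale. Without the filter they were 104 for 24 to 72 h against undamaged and 1183 for the time course, the replicate block gave 79 for 24 to 72 h against undamaged, and fits of the compared groups alone gave 1971 and 23 for the comparisons of Hep-Org and of 24 to 72 h with undamaged. In that last fit Ccne1 (adjusted p 0.0524) and Cdk6 (0.105) were no longer called against undamaged.

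A common FPKM sum made Cdkn1b 1.34 against 24 to 72 h and 1.60 against undamaged in Hep-Org, turned Cdk6 to 0.0444 and Cdkn1b to 0.26 for 24 to 72 h against undamaged, and Cdk4 to -0.13 for 24 to 72 h against 7 to 21 d. In that last comparison median-ratio scaling made Ccnd3 0.00018 and voom made Cdkn2a 0.0528. The cause was not tested. Leaving out 1 library turned signs of differences near 0: Ccne2 -0.14 to 0.24 and Cdkn1b -0.0974 to 0.0129 in Hep-Org against 24 to 72 h; Ccnd2 -0.20 to 0.61, Ccnd3 -0.10 to 0.11 and Cdk6 -0.39 to 0.0699 in 24 to 72 h against undamaged; and Ccnd1 -0.28 to 0.27, Ccnd2 -0.0369 to 0.31, Ccnd3 -0.0726 to 0.0636 and Cdkn2a -0.18 to 0.11 in 24 to 72 h against 7 to 21 d. The difference in the Cdk4 share ran from -5.99 to 1.73 percentage points. In Hep-Org against 24 to 72 h, Ccne1 ran from 1.16 to 1.73 and Cdk6 from 0.97 to 1.89, and against undamaged Cdk6 ran from 0.81 to 1.73 and lost its call in 2 of 20 such fits. Cdkn2a and Cdkn2b in liver rest on 0 to 19 reads per library, and what difference among liver groups this depth could show was not tested.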
